A study of Mus musculus with 22 samples.

Results

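The mouse retina and choroid at day 7 after laser burns was compared with unburned tissue, across every gene counted in both. Laser burns that break the barrier under the retina set off choroidal neovascularisation (CNV), in which vessels of the choroid sprout toward the retina, and serve as a model of neovascular macular degeneration. The comparison rests on 8 of the 22 RNA sequencing libraries of the series, 4 from day 7 and 4 from controls, chosen by the titles of the samples. All 8 came from wild-type adult C57BL/6J mice, with retina and choroid dissected and extracted as 1 tissue. Control replicates 1 to 3 had no treatment. Control replicate 4 is titled as without CNV but carries a treatment tag of laser-induced CNV, so it was kept as a control, and the number of calls and the values of several leading genes are also given without it. The 4 libraries each of day 3 and day 14 after the laser, from the same strain, entered the model for its estimate of the spread. The labels do not tie a library to an animal or an eye, so the p-values measure the spread between these samples, which may be technical.

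A burn through the pigment epithelium kills photoreceptors above it, and the neighbouring photoreceptors and Muller glia, the radial glia of the retina, switch on stress genes. Microglia and blood-borne phagocytes gather at the scar, where complement, chemokines and matrix enzymes are made. Endothelial sprouts and fibroblast-like cells then fill the lesion, while neurons outside it can lose synaptic and ion channel transcripts.

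The 8 libraries held 15033983 to 16381751 counts in genes. Markers of the labelled tissue were present, as rod genes took 7.34% to 8.1% of control counts and pigment epithelium genes 0.27% to 0.382%. The day 7 libraries were not alike. Genes of the cornea and conjunctiva took 2.83% and 2.4% of counts in day 7 replicates 1 and 2, 0.762% and 0.568% in replicates 3 and 4, and 0.269% to 0.799% in controls. Lens genes took 1.8%, 0.011%, 1.98% and 4.58% of counts in day 7 replicates 1 to 4 against 0.0278% to 1.61% in controls. Haemoglobin and other red cell genes took 0.0701% in day 7 replicate 1 and at most 0.0075% elsewhere. On the first principal component of the 16 wild-type libraries, which held 44.2% of the variance, controls lay between -73.9 and -42.8. Day 7 replicates 1 and 2 lay at 52.5 and 20.3, and replicates 3 and 4 at -18.1 and -7.7.

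**Figure D1:**
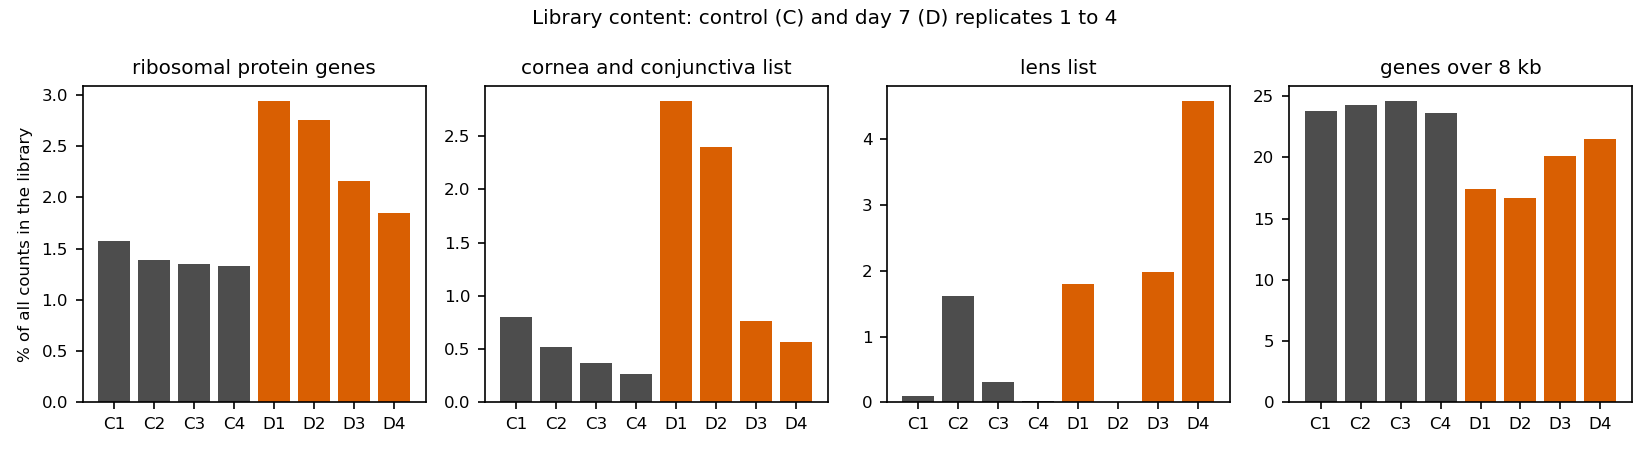
Percent of all counts taken by ribosomal protein genes, by the cornea and conjunctiva list, by the lens list and by genes longer than 8 kb, 1 bar per library (C, control; D, day 7). Day 7 replicates 1 and 2 hold the most ribosomal protein counts (2.94% and 2.76%) and the fewest counts of genes over 8 kb (17.4% and 16.7%), and all 4 controls lie at 23.6% or more for the latter.

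At day 7 the calls included rises of injury peptides, phagocyte and complement genes, and falls of single neurotransmitter receptors, potassium channels and neuronal adhesion molecules. Many of these calls were lost when gene length or the lens and cornea content of the libraries entered the model. Such losses are given below for many of the lists but not for every gene. Gene length here is the value in the deposited table that its FPKM uses. For many genes it is far below the span on the chromosome. Of 18657 genes tested, 1962 were called changed (edgeR quasi-likelihood test, Benjamini-Hochberg adjusted p under 0.05), which is 10.5% of them. Of these, 675 genes (3.62%) were higher and 1287 (6.9%) lower, by at least 2-fold in 258 and 316. CPM values are counts scaled to a common library total and by the scaling factor per library (TMM) of the main test. Those of the 4 day 7 libraries lay all above the controls for 605 of the 675 and all below for 1270 of the 1287. The same non-overlap was found for 11.3% of all tested genes upward and 18.4% downward, called or not. The counts given for the lists below are to be read beside these shares of all tested genes. When libraries were scaled by their totals alone, 799 genes were higher and 631 lower, so the lower share of the calls was 44.1% in place of 65.6%.

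The number of calls depended strongly on single libraries. It was 128 without control replicate 3, 190 without day 7 replicate 2, 286 without day 7 replicate 1, 425 without control replicate 2, 551 without control replicate 1 and 620 without control replicate 4. It was 1596 without day 7 replicate 3 and 2923 without day 7 replicate 4. With day 7 replicates 1 and 2 both left out, 6 genes remained called, all among the 1962. All 1962 kept their direction in each of these fits. Of the 101 called genes named below, 13 kept their call in each of the 8 fits that left out 1 library: Edn2, Ecel1, Ighm, Cd9, Lox, Mmp12, Tnnt2, Rpl26, Glra1, Grin2b, Kcnh5, Zbtb16 and Shc3. The others lost their call in at least 1 of these fits, most often without control replicate 3, where 15 were left. Without control replicate 4, 40 of the 101 were called: Ecel1 (adjusted p = 0.025), Trem2 and C1qb (both 0.0417), Lrat (0.045) and Hk2 (0.0458) kept the call, while Gfap (0.055), Tyrobp (0.0733) and Col3a1 (0.0758) did not. Of the 101, 48 were called with an offset for gene length and 55 with lens and cornea scores (mean log2 CPM of each list) as covariates. With these scores the median log2 fold change turned from negative to positive for the Muller glia, NK cell, rod, cone, bipolar and glycine and GABA receptor lists. It turned from positive to negative for the antigen presentation, interferon, endothelial, angiogenic, pericyte, collagen and muscle lists. The lens list turned too, but it supplies 1 of the scores, so its value in this model is no result.

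**Figure D2:**
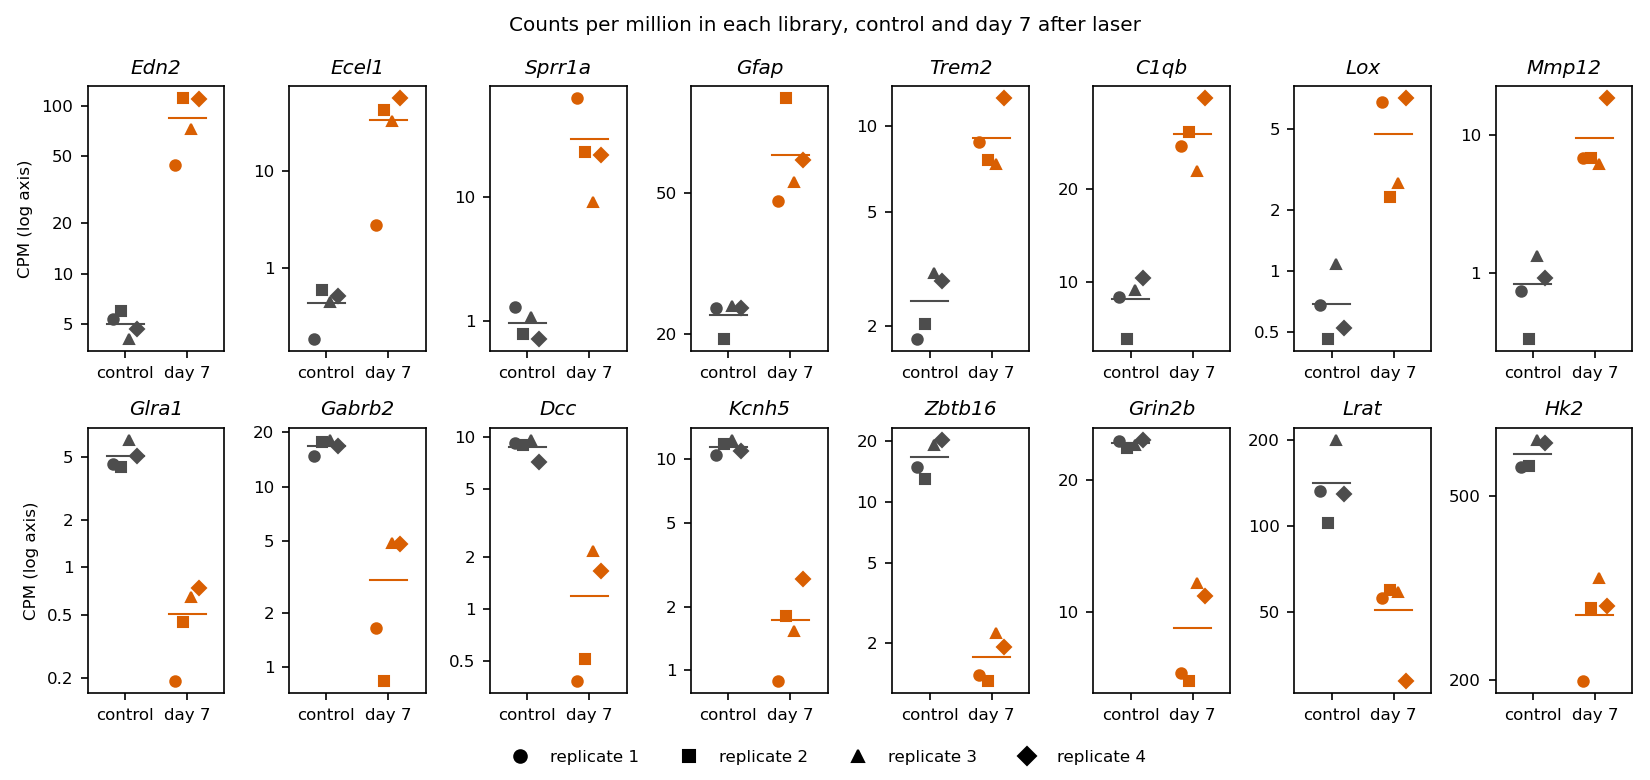
CPM on a log axis in each of the 4 control and 4 day 7 libraries for 8 genes that rose and 8 that fell; symbols mark the replicate number and lines the group mean. In each of the 16 panels the control and day 7 libraries do not overlap, and Ecel1 in day 7 replicate 1 (2.78 CPM) lies nearest to the controls among the day 7 values of that gene.

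Among the largest rises were peptides and enzymes that neurons and photoreceptors make after injury. Edn2 encodes endothelin 2, a vasoactive peptide that stressed photoreceptors release to Muller glia. It stood at 5.38, 5.97, 4.07 and 4.68 CPM in control replicates 1 to 4 and at 44.7, 111.2, 72.3 and 109.3 CPM at day 7. Every day 7 library was above every control, with replicate 1 the lowest of them, and the log2 fold change was 4.07 ± 0.36 (SE; edgeR adjusted p = 2e-04). Without control replicate 4 it was 4.04 (adjusted p = 0.00311), and without day 7 replicates 1 and 2 it was 4.20 (adjusted p = 0.000416).

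Ecel1, a membrane peptidase induced in injured neurons, was at 0.186, 0.59, 0.445 and 0.52 CPM in controls and at 2.78, 41.6, 32.3 and 55.7 CPM at day 7. Replicate 1 had far less than the other day 7 libraries but was still above each control (log2 fold change 6.23 ± 1.05, adjusted p = 0.0074). Sprr1a, a cornified envelope protein of squamous epithelia that injured axons also make, went the other way among the day 7 libraries. It was at 1.3, 0.787, 1.08 and 0.715 CPM in controls and at 62.1, 22.8, 9.12 and 21.7 CPM at day 7, highest in replicate 1, the library richest in cornea and conjunctiva genes. Its log2 fold change was 4.88 ± 0.93 (adjusted p = 0.0109), 4.19 without day 7 replicate 1 (adjusted p = 0.0372) and 3.67 (adjusted p = 0.0177) with lens and cornea scores in the model.

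The 250 bases before the start of Sprr1a and Edn2 are shown because both genes rose strongly and the AP-1 gene Fos rose beside them. AP-1 dimers of Fos and Jun proteins bind TGANTCA, which reads the same on both strands. Capitals mark each match, both sequences are from RefSeq on build GRCm38.p6 (mm10), 5′ to 3′ on the strand of the gene, and end at the last base before the annotated start. Sprr1a lies on the minus strand at chr3:92485882-92486131 and Edn2 on the plus strand at chr4:120160956-120161205.
Sprr1a: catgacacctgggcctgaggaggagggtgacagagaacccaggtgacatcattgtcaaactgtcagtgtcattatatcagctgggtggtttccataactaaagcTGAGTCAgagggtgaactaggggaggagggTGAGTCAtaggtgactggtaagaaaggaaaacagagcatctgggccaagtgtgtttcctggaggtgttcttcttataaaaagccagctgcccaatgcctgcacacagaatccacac
Edn2: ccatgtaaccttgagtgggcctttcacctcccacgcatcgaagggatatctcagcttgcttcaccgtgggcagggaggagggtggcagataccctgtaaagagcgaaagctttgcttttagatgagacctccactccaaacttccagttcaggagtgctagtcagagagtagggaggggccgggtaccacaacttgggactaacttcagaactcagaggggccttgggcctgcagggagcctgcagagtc

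The Sprr1a window held 2 matches, which start 146 and 116 bases before the start, and the Edn2 window and that of Ecel1 held none. A match was found before 5.7% of the 456 genes called higher that have a promoter in the table, before 5.02% of 877 called lower and before 5.87% of all 12834 tested genes with one. Over all 32851 promoters of the table the share was 6.75%. A match is a description of the letters and not of binding.

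Other stress genes rose by less. Of the 13 tested members of the photoreceptor stress list, 4 were called higher (30.8%, against 3.62% of all tested genes) and none lower. They were Edn2, the survival factor Fgf2, and the metal-binding metallothioneins Mt1 and Mt2. Fgf2 was at 19.3 to 23.3 CPM in controls and at 22.4, 44.5, 39.7 and 64.1 CPM at day 7. Day 7 replicate 1 lay within the control range and the other 3 above it (log2 fold change 1.01 ± 0.29, adjusted p = 0.0415). Mt2 went from 4.08 to 5.18 CPM in controls to 7.4 to 14.9 CPM at day 7 without overlap (1.37 ± 0.30, adjusted p = 0.0183), and Mt1 by 0.68 ± 0.20 (adjusted p = 0.0459). With lens and cornea scores 2 of the 13 were called and the list median went from 0.41 to 0.06.

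Of the 18 axon injury genes, 3 were called higher and 1 lower, and 8 were higher with lens and cornea scores. Beside Ecel1 and Sprr1a the small heat shock protein gene Hspb1 rose (2.20 ± 0.67, adjusted p = 0.0493), and Klf7, a factor that promotes axon growth, fell (-0.96 ± 0.27, adjusted p = 0.0383). Hspb1 was highest in day 7 replicates 1 and 2, at 319.6 and 292.5 CPM against 60.5 and 172.6 CPM in the others, and 24.9 to 78.1 CPM in controls, and its log2 fold change was 0.92 (adjusted p = 0.221) with lens and cornea scores in the model.

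Among 16 immediate early genes, which neurons and glia switch on within minutes of a stimulus, 4 rose and none fell. The 25% called compares with 3.62% of all tested genes called higher. The list median was 0.51 against 0.03 for all genes. Egr1 was at 21 to 26.2 CPM in controls and at 30.9, 57.5, 70.8 and 50.7 CPM at day 7, with replicate 1 just above the controls (1.11 ± 0.23, adjusted p = 0.0161). Fos (0.56, adjusted p = 0.021), Fosb (0.83, adjusted p = 0.0215) and Egr2 (2.90, adjusted p = 0.0284) were the others. Egr2 stayed under 1 CPM in each of the 8 libraries. Fos did not pass with the gene length offset (adjusted p = 0.108). Fosb and Egr2 did not pass with lens and cornea scores (adjusted p = 0.0513 and 0.0794).

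Gliosis markers were shifted upward with few calls. Of 20 members, 19 had a positive log2 fold change and the median was 0.98, but 2 were called, both higher. That is 10% of the list, against 3.62% of all tested genes called higher and 10.5% called in either direction. The median was 0.34 with lens and cornea scores, with 1 rise and 1 fall. Gfap, the intermediate filament of reactive glia, was at 23.6, 19.3, 23.9 and 23.7 CPM in controls and at 47.3, 92.5, 53.7 and 61.8 CPM at day 7. The groups did not overlap (1.496 ± 0.353, adjusted p = 0.0224), and Gfap in control replicate 4 was like the untreated controls. The transcription factor gene Cebpd rose as well (1.20 ± 0.32, adjusted p = 0.0334). The cytokine gene Lif (0.99, adjusted p = 0.0863) and Stat3 (0.58, adjusted p = 0.0683), which transmits its signal, did not pass the test although their groups did not overlap.

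Muller glia genes of normal function gave no call among 12, with a median of -0.16. Glul, the glutamine synthetase that clears glutamate in these cells, was at 2474 to 2832 CPM in controls and 1657 to 2237 CPM at day 7, without overlap and without passing the test (-0.44 ± 0.15, adjusted p = 0.0765). The progenitor factor Hes1 had the largest positive value of the list (1.07, adjusted p = 0.0754), and its highest day 7 values were again in replicates 1 and 2.

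Phagocyte transcripts were higher at day 7. In bulk tissue, more cells of a type and more RNA per cell cannot be told apart, here or in any list below. Of 20 genes of activated phagocytes, 5 rose and none fell (median 1.20, 13 of 20 without overlap upward). Among all tested genes 3.62% were called higher and 11.3% lay above the controls without overlap. With the gene length offset 3 were called, and with lens and cornea scores 3 with a median of 0.61. Trem2, the lipid-sensing receptor of disease-associated microglia, was at 1.79, 2.03, 3.05 and 2.86 CPM in controls and 8.79, 7.6, 7.34 and 12.5 CPM at day 7. All day 7 libraries were above the controls (1.89 ± 0.41, adjusted p = 0.0176). Tyrobp, its signalling adaptor, rose by 1.67 ± 0.45 (adjusted p = 0.0334) and Clec7a, the receptor for fungal glucans, by 2.24 ± 0.54 (adjusted p = 0.0243). Neither passed with the scores (adjusted p = 0.11 and 0.0513).

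Cd9 and Lgals3, which phagocytes share with surface epithelia, rose in a different order of libraries. Cd9, a tetraspanin, was at 45.5 to 76.2 CPM in controls and at 210.0, 214.9, 107.1 and 120.3 CPM at day 7 (1.505 ± 0.278, adjusted p = 0.00928). Lgals3, galectin 3, was at 392.3, 336.2, 123.5 and 111.1 CPM at day 7 against 44.5 to 93.2 CPM in controls (1.85 ± 0.53, adjusted p = 0.0403). Both were highest in replicates 1 and 2, as the cornea and conjunctiva list was, whereas Trem2 and Clec7a were highest in replicate 4. With lens and cornea scores in the model Lgals3 stood at 0.62 (adjusted p = 0.0428) and Cd9 at 0.99 (adjusted p = 0.00838).

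Genes of resting microglia did not fall. All 12 had a positive log2 fold change (median 1.06), and 3 were called: the fractalkine receptor Cx3cr1, the orphan receptor Gpr34 and the selectin ligand Selplg. Cx3cr1 was at 3.96, 2.69, 2.1 and 2.4 CPM in controls and at 6.64, 6.38, 6.33 and 8.6 CPM at day 7, without overlap (1.32 ± 0.27, adjusted p = 0.014). Gpr34 in day 7 replicate 1 lay inside the control range (1.20 ± 0.32, adjusted p = 0.0333). Selplg rose by 1.07 ± 0.30 (adjusted p = 0.0392). With the gene length offset 1 of the 12 was called, and Gpr34 and Selplg did not pass (adjusted p = 0.0937 and 0.0643). The ligand of Cx3cr1, Cx3cl1, which retinal neurons make, fell from 83.5 to 105.1 CPM to 59.7 to 77.5 CPM (-0.43 ± 0.11, adjusted p = 0.0254).

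Complement gave 5 rises and 1 fall among 19 tested genes (31.6% called, against 10.5% of all tested genes), and the median was 1.33. With the gene length offset 1 gene was called, and with lens and cornea scores 3 were, with a median of 0.66. The chains of C1q, which starts the classical pathway and is made by microglia, all rose. C1qb was at 8.91, 6.49, 9.4 and 10.3 CPM in controls and at 27.6, 30.7, 22.9 and 39.5 CPM at day 7, 1.78 ± 0.38 on the log2 scale (adjusted p = 0.0177). C1qa rose by 1.40 (adjusted p = 0.0352) and C1qc by 1.54 (adjusted p = 0.0259), and for all 3 chains day 7 replicate 4 was highest. The integrin chain Itgb2 of complement receptor 3 (1.76, adjusted p = 0.042) and Cfi, a protease that inactivates C3b (1.33, adjusted p = 0.0436), rose too.

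Other leukocyte lists held few calls. Fc receptor genes gave 2 rises among 5, the shared signalling chain Fcer1g (1.64 ± 0.40, adjusted p = 0.0244) and Fcgr4 (2.49 ± 0.74, adjusted p = 0.0455), the latter at 3.18 without control replicate 4 (adjusted p = 0.0571). Neither was called with the offset or with the scores. Ctss, the cathepsin that trims the invariant chain in antigen-presenting cells, was the 1 call among 17 antigen presentation genes. It was at 9.18 to 17.6 CPM in controls and at 42, 42.6, 39.2 and 68.9 CPM at day 7 (1.74 ± 0.38, adjusted p = 0.0183). Of 20 interferon response genes 1 was called, higher. Without day 7 replicates 1 and 2 the median of the antigen presentation list was 0.25 in place of 0.68 and that of the interferon list 0.11 in place of 0.59. With lens and cornea scores these medians were -0.12 and -0.27.

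Of 20 chemokine and adhesion genes, Cxcl16 was called higher (0.76 ± 0.19, adjusted p = 0.0289) and Cx3cl1 lower. Cxcl16 did not pass with the gene length offset or with lens and cornea scores (adjusted p = 0.0574 and 0.076). The monocyte chemokine gene Ccl12 was at 0.124 to 0.195 CPM in controls and 0.533 to 0.709 CPM at day 7, without overlap, and did not pass (2.01 ± 0.72, adjusted p = 0.0779). Cd180, a Toll-like receptor relative on macrophages and B cells, was at 0.124, 0.459, 0.127 and 0.13 CPM in controls and 1.26, 1.55, 0.888 and 1.66 CPM at day 7 (2.64 ± 0.56, adjusted p = 0.0176, and 3.32 without control replicate 2, adjusted p = 0.0244). Ighm, the heavy chain of IgM, went from 0.845 to 1.08 CPM to 4.87, 2.64, 2.01 and 3.01 CPM without overlap (1.72 ± 0.29, adjusted p = 0.0074). It was the 1 call among 7 tested T and B cell genes. The T cell receptor genes Cd3e, Cd3d, Cd3g, Trac and Trbc2 were too low to test.

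The series set out to follow natural killer (NK) cell genes over the course of CNV. At day 7 most of them were below what the depth could test. Of 16 NK genes, 13 were too low for the filter. Ncr1, the activating receptor that defines these cells, had 0 counts in all 8 libraries, and the cytotoxic genes Gzma, Gzmb and Prf1 had 16, 8 and 1 counts over the controls and 10, 5 and 9 over day 7. The 3 tested members did not pass. Ccl5, a chemokine of NK and T cells, was at 0.13 to 0.853 CPM in controls and 0.355 to 1.41 CPM at day 7 (0.91 ± 0.62, adjusted p = 0.316). The interleukin receptor chain Il2rb (-0.36, adjusted p = 0.736) and Eomes (-0.48, adjusted p = 0.498), which retinal ganglion cells also express, overlapped between groups.

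Neutrophil genes were also near the floor. Of 13 listed genes 5 were tested, and Csf3r and Prtn3 were called higher. Csf3r, which binds the growth factor G-CSF, was at 0.656 to 0.845 CPM in controls and at 1.83, 2.96, 2.78 and 4.24 CPM at day 7 (1.99 ± 0.60, adjusted p = 0.0481). It lost the call in each of the 8 fits that left out 1 library. Prtn3, proteinase 3, rose by 1.64 ± 0.35 (adjusted p = 0.0177) and did not exceed 2.03 CPM. The defining granule and surface genes Elane, Ly6g and Mpo had 0, 1 and 1 counts over the 4 day 7 libraries, and S100a8 was at 0.118 to 0.759 CPM at day 7 (1.37 ± 1.71, adjusted p = 0.592).

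**Figure D3:**
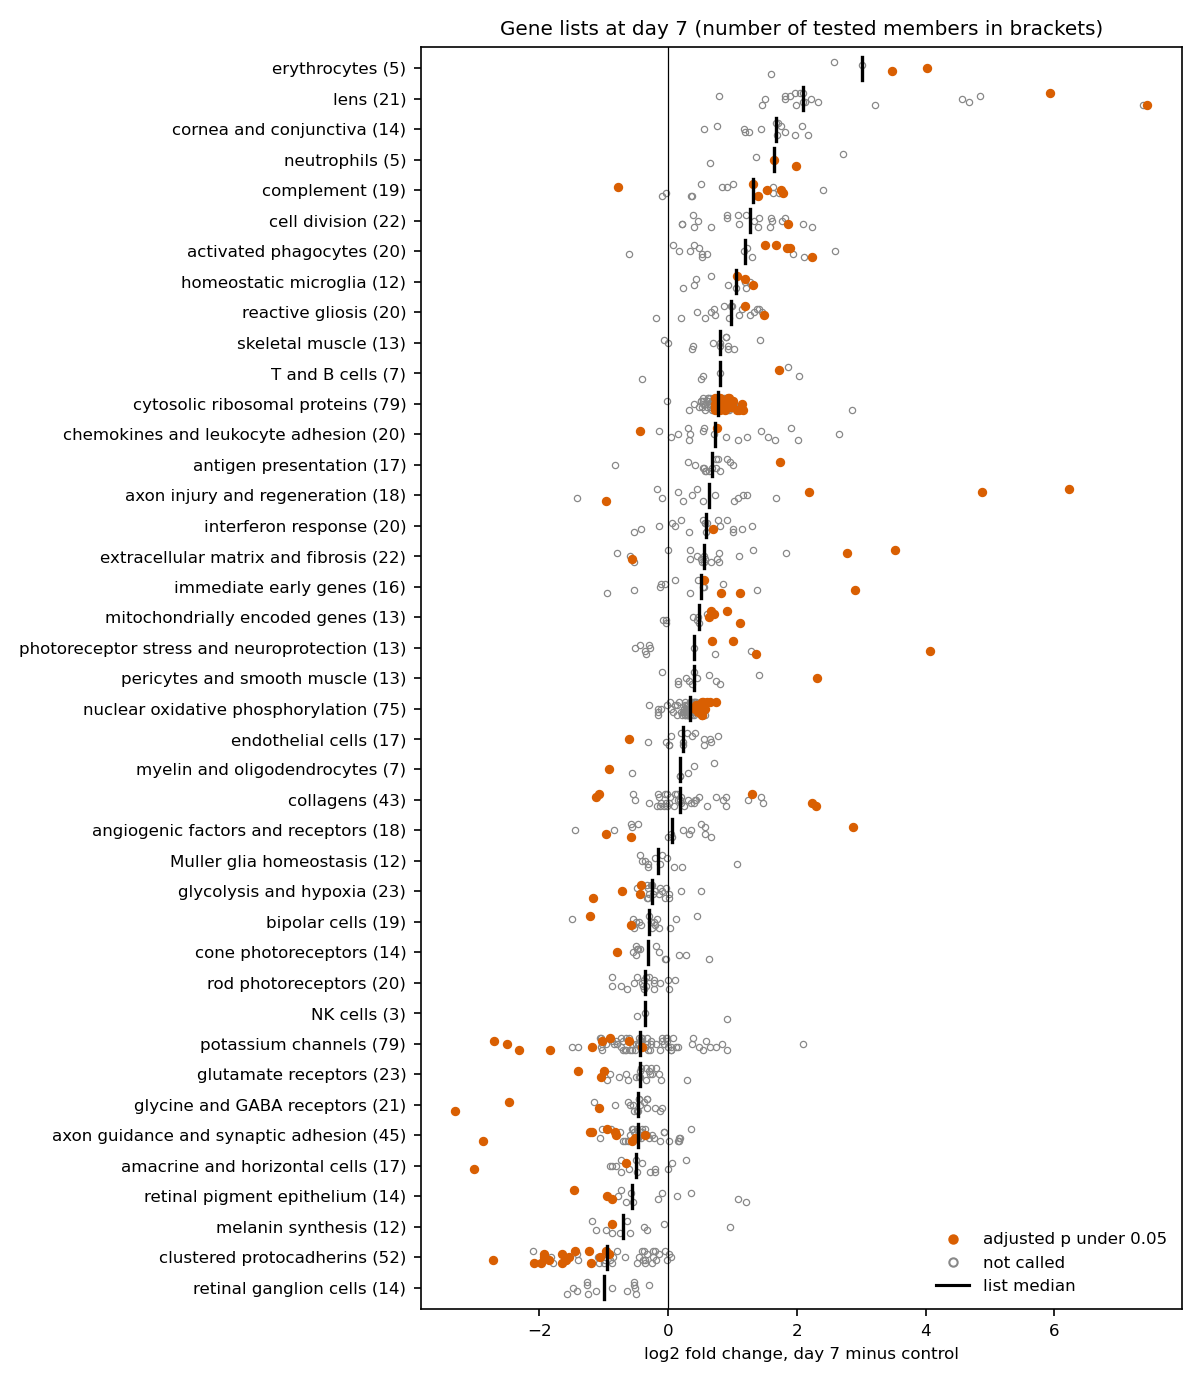
Log2 fold change (day 7 minus control) of each tested member of 41 gene lists, ordered by the list median (black bar); filled points passed the test and open points did not. Gliosis, activated phagocyte and complement medians lie at 0.98, 1.20 and 1.33, while protocadherins and retinal ganglion cell genes have the lowest medians (-0.94 and -0.99), the latter with no call.

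Matrix and vessel lists together held calls in both directions. The shares called were 13.6% of matrix, 11.6% of collagen and 16.7% of angiogenic genes, against 10.5% of all tested genes. They were 5.88% of endothelial and 7.69% of pericyte and smooth muscle genes. Among 22 matrix and fibrosis genes, 2 rose and 1 fell. Mmp12, the macrophage elastase, was at 0.742, 0.328, 1.33 and 0.91 CPM in controls and at 6.83, 6.89, 6.16 and 18.7 CPM at day 7. All day 7 values exceeded the controls, with replicate 4 highest (3.53 ± 0.59, adjusted p = 0.00733). Lox, the enzyme that crosslinks collagen and elastin, was at 0.68, 0.459, 1.08 and 0.52 CPM in controls and 6.83, 2.32, 2.72 and 7.12 CPM at day 7 (2.78 ± 0.52, adjusted p = 0.00965). Tenascin C (Tnc), a matrix protein of wounds, was lower at day 7 (-0.56 ± 0.14, adjusted p = 0.0254). It did not pass with the gene length offset or with total scaling (adjusted p = 0.101 and 0.053).

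Of 43 collagen genes, 3 rose and 2 fell. With the gene length offset 1 rose and 1 fell, and with lens and cornea scores none rose and 2 fell. Col3a1, the fibrillar collagen of scars and vessel walls, was at 16.6, 9.77, 20.7 and 10.6 CPM in controls and 121, 29.4, 39.4 and 83.7 CPM at day 7 (2.24 ± 0.57, adjusted p = 0.0293). Day 7 replicate 1 was highest and replicate 2 lowest, all above the controls, and the value was 1.52 (adjusted p = 0.131) with lens and cornea scores in the model. Col5a2 (1.30, adjusted p = 0.0479) and Col10a1 (2.30, adjusted p = 0.0357) rose with it. The 2 chains of type VIII collagen, a component of the basement layers of choroid and cornea, fell together: Col8a1 by 1.12 and Col8a2 by 1.08 on the log2 scale (adjusted p = 0.0227 and 0.0177). Col8a2 was at 97.3 to 149.8 CPM in controls and at 83.8, 60, 52.6 and 36.2 CPM at day 7, without overlap.

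Angiogenic factors gave 1 rise and 2 falls among 18 tested, with a median of 0.06. Aplnr, the apelin receptor of sprouting endothelium, was at 0.124 to 0.191 CPM in controls and at 1.64, 0.644, 0.533 and 1.6 CPM at day 7, without overlap (2.87 ± 0.63, adjusted p = 0.0183). Fgf1 (-0.96 ± 0.21, adjusted p = 0.0177) and the VEGF and semaphorin receptor Nrp2 (-0.57 ± 0.15, adjusted p = 0.0293) fell. Nrp2 was at -0.26 with the gene length offset (adjusted p = 0.251) and did not pass when scaled by totals (adjusted p = 0.0595). Vegfa itself, the target of the drugs given for this disease, was at 194.5, 209.7, 197.8 and 225.7 CPM in controls and 139.4, 139.2, 170.7 and 151.0 CPM at day 7. Its groups did not overlap and it did not pass the test (-0.46 ± 0.16, adjusted p = 0.068). Vegfa was called lower with DESeq2 and in the edgeR model of just control and day 7.

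Flt1, the decoy receptor for VEGF, was the 1 call among 17 endothelial genes and was lower (74.1 to 92.7 CPM to 43.3 to 63.6 CPM, -0.61 ± 0.16, adjusted p = 0.0302). Its length in the deposited table is 13504 bases, and with the gene length offset the value was -0.25 (adjusted p = 0.314). The endothelial median was 0.24, and -0.19 without day 7 replicates 1 and 2. Glycam1, a mucin-like ligand of L-selectin, had counts in 1 of 4 control libraries and was at 1.33, 0.773, 1.66 and 2.03 CPM at day 7 (4.34 ± 1.15, adjusted p = 0.0331). Without control replicate 2, the library with those counts, all controls are at 0, the fitted value is no measure of a fold and the gene did not pass (adjusted p = 0.0547). Among 13 pericyte and smooth muscle genes the smooth muscle actin gene Actg2 was called higher (2.32 ± 0.62, adjusted p = 0.0336). It did not pass with the gene length offset or with lens and cornea scores (adjusted p = 0.064 and 0.134). Tnnt2, the cardiac form of troponin T, was at 1.36, 2.17, 2.67 and 2.08 CPM in controls and at 6.89, 12.3, 9.29 and 19.9 CPM at day 7 (2.55 ± 0.40, adjusted p = 0.0063).

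All 22 cell division genes had a positive log2 fold change, with a median of 1.27, but 1 was called. Ccnb2, a mitotic cyclin, was at 1.56 to 2.23 CPM in controls and at 10.7, 9.86, 4.2 and 3.62 CPM at day 7 (1.87 ± 0.57, adjusted p = 0.0485). Pbk, a mitotic kinase outside the list, went from 0.328 to 0.742 CPM to 6.39, 3.74, 1.12 and 1.53 CPM (2.62 ± 0.78, adjusted p = 0.0456). Birc5, survivin, was likewise highest in replicates 1 and 2 and did not pass (1.76 ± 0.66, adjusted p = 0.0881). The median of the list was 0.33 without these replicates and 0.05 with lens and cornea scores in the model.

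Among the genes that fell most were those of inhibitory transmission, channels and adhesion in retinal neurons. Glra1, the alpha 1 subunit of the glycine receptor, was at 4.52, 4.33, 6.42 and 5.07 CPM in controls and at 0.19, 0.451, 0.651 and 0.737 CPM at day 7. The day 7 libraries lay far below every control (-3.30 ± 0.58, adjusted p = 0.0081). Gabrb2, a GABA-A receptor subunit, was at 14.7, 17.6, 18.1 and 16.8 CPM in controls and 1.64, 0.838, 4.86 and 4.79 CPM at day 7 (-2.46 ± 0.71, adjusted p = 0.0423). Gabbr2, of the metabotropic GABA-B receptor, fell by 1.07 (adjusted p = 0.0458) and lost its call in each of the 8 fits that left out 1 library. These were the 3 calls among 21 glycine and GABA receptor genes (14.3%, against 6.9% of all tested genes called lower). All 21 had a negative log2 fold change (median -0.46), and 14 lay below the controls without overlap, against 18.4% of all tested genes. Glra1 alone was called with the gene length offset, where Gabrb2 and Gabbr2 did not pass (adjusted p = 0.0672 and 0.0967), and 1 of the 21 was called with lens and cornea scores or with total scaling. The median was 0.015 with the scores.

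Of 23 glutamate receptor genes, 3 fell and none rose, with a median of -0.43. Grin2b encodes an NMDA receptor subunit and has a length of 24842 bases in the deposited table. It was at 24.6, 23.8, 24 and 24.7 CPM in controls and at 7.27, 6.96, 11.7 and 10.9 CPM at day 7. Controls were nearly equal and all day 7 values were less (-1.40 ± 0.25, adjusted p = 0.0081). With an offset for gene length the value was -0.84 (adjusted p = 0.0249). Grin3a (-1.04, adjusted p = 0.047) and the kainate receptor gene Grik3 (-0.99, adjusted p = 0.0389) fell too, and neither passed with that offset (adjusted p = 0.155 and 0.105). Grin3a lost its call in each of the 8 fits that left out 1 library. In the model with lens and cornea scores 1 of the 23 was called and the median was -0.095.

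Potassium channels set the resting potential and firing of neurons. Of 79 tested genes 9 fell and none rose (median -0.43). The 11.4% called compares with 6.9% of all tested genes called lower and 10.5% called in either direction. Below the controls without overlap lay 41 of the 79, against 18.4% of all tested genes. With the gene length offset 3 were called lower, and 5 with lens and cornea scores (median -0.26) or with total scaling. Kcnh5, an ether-a-go-go channel, was at 10.4, 11.8, 12.3 and 10.9 CPM in controls and at 0.885, 1.8, 1.54 and 2.7 CPM at day 7 (-2.71 ± 0.43, adjusted p = 0.00661). The Shaker channels Kcna1 (-2.32), Kcna2 (-1.19) and Kcna3 (-2.50) all fell. Kcna1 was at 12 to 14.7 CPM in controls and 1.46 to 4.24 CPM at day 7 (adjusted p = 0.0202), and Kcna2 at 82.7 to 87.2 CPM and 32.4 to 42.7 CPM (adjusted p = 0.0302). Kcna2 did not pass with the offset (adjusted p = 0.0898).

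Guidance and synaptic adhesion genes gave 9 falls and no rise among 45 (20%, against 6.9% of all tested genes called lower). Their median was -0.47. Dcc, the netrin receptor, was at 9.34, 9.05, 9.66 and 7.15 CPM in controls and at 0.379, 0.515, 2.19 and 1.66 CPM at day 7, lowest in replicates 1 and 2 (-2.88 ± 0.57, adjusted p = 0.013). Robo2, a receptor for Slit proteins, fell from 60.9 to 62.8 CPM to 25.1 to 38.2 CPM (-0.95 ± 0.21, adjusted p = 0.0183), and its ligand Slit1 by 1.18 (adjusted p = 0.0331). The members of this list are long, with a median of 8692 bases, and with an offset for gene length 2 of the 45 were called and the median was -0.19. The model with lens and cornea scores called 6 (median -0.27).

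Clustered protocadherins, adhesion molecules that give neurons a surface identity, had the highest share of falls among the neuronal lists. Of 52 tested, 17 fell and none rose (32.7%, against 6.9% of all tested genes called lower), with a median of -0.94. Split by cluster after these values were seen, 8 of 11 alpha genes fell (median -1.93), 8 of 20 gamma genes (median -0.97) and 1 of 21 beta genes (median -0.32). All 11 alpha genes lay below the controls without overlap. Pcdhac2 was at 12.7, 11.2, 12.5 and 14 CPM in controls and at 0.885, 2.83, 4.38 and 4.73 CPM at day 7 (-1.97 ± 0.43, adjusted p = 0.018), and Pcdhgc4 fell from 19.4 to 22.9 CPM to 3.48 to 9.65 CPM (-1.65, adjusted p = 0.0281). Pcdha6 had the largest fall (-2.71, adjusted p = 0.0206). With the offset for gene length 13 of the 52 were lower, with a median of -0.91, and with lens and cornea scores 12, with a median of -0.75. Alpha and gamma genes share 3′ exons within a cluster, and how the counting split reads among them is not given in the sources used here.

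A few falls stood outside these lists. Zbtb16, a zinc finger transcription factor, was at 14.8, 12.9, 19 and 20.2 CPM in controls and at 1.39, 1.29, 2.25 and 1.9 CPM at day 7 (-3.29 ± 0.53, adjusted p = 0.00679). Shc3, a neuronal adaptor of receptor kinases, was at 6.99, 7.74, 8.83 and 6.37 CPM in controls and 0.696, 0.838, 1.66 and 1.6 CPM at day 7 (-2.63 ± 0.37, adjusted p = 0.00552). In both genes the lowest control exceeded the highest day 7 library several fold.

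The marker lists of the classes of retinal neuron each held at most 2 falls. Of all tested genes, 6.9% were called lower. No rod gene passed among 20 (median -0.36), although 8 lay below the controls without overlap, against 18.4% of all tested genes. The median was 0.16 with lens and cornea scores, opposite in direction. The exchanger gene Slc24a1 and the rhodopsin kinase gene Grk1 had the lowest values, -0.87 and -0.86 (adjusted p = 0.074 and 0.0722). Rod genes together took 4.39%, 7.43%, 7.62% and 5.4% of counts in day 7 replicates 1 to 4, so replicates 2 and 3 lay within the control range and the others below it. Of 14 cone genes the exchanger gene Slc24a2 fell (-0.80 ± 0.24, adjusted p = 0.0455), and the transducin gene Gnb3 had the highest value (0.64, adjusted p = 0.0892). With those scores the cone median was 0.16 in place of -0.31 and Gnb3 was called higher (1.14, adjusted p = 0.00157).

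Of the bipolar cell genes 2 fell. Trpm1, the cation channel of ON bipolar cells, fell from 316.6 to 372.6 CPM to 225.6, 190.4, 217.9 and 276.9 CPM (-0.58 ± 0.14, adjusted p = 0.0224), and Nyx, which anchors it, from 13.8 to 15.8 CPM to 3.54, 4.57, 7.04 and 10.2 CPM (-1.22 ± 0.30, adjusted p = 0.0254). These were 2 calls among 19 (10.5%, against 6.9% of all tested genes called lower). The list median was -0.30 in the main model and 0.12 with lens and cornea scores. Trpm1 has a length of 14746 bases in the deposited table. With the gene length offset it was at -0.18 (adjusted p = 0.255) and Nyx at -1.18 (adjusted p = 0.0456). Of 17 amacrine and horizontal cell genes 2 fell: Onecut1, a horizontal cell factor (-3.02 ± 0.65, adjusted p = 0.0176), and the glycine transporter gene Slc6a9 (-0.64 ± 0.19, adjusted p = 0.0439). Onecut1 was at 1.92 to 2.67 CPM in controls and at 0.19, 0.0644, 0.474 and 0.307 CPM at day 7. Slc6a9 did not pass with the offset, the scores or total scaling (adjusted p = 0.079, 0.194 and 0.0752).

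Retinal ganglion cell genes had a lower median than any other list, -0.99, with all 14 negative. Below the controls without overlap lay 10 of the 14, against 18.4% of all tested genes. None of the 14 passed the edgeR test. Nefh, a neurofilament of large axons, was at 89.7, 92, 74.7 and 109.8 CPM in controls and at 57.5, 35.9, 45.2 and 30.9 CPM at day 7 (-1.11 ± 0.41, adjusted p = 0.0822). The neurofilament gene Nefm (-1.25, adjusted p = 0.0898) and the POU factor gene Pou4f3 (-1.47, adjusted p = 0.0758) did not pass either. Nefh, Nefm and Pou4f3 were called lower with DESeq2 and in the edgeR model of just control and day 7. The median of the list was -1.01 without day 7 replicates 1 and 2.

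Pigment epithelium genes fell in part. Of 14 tested, 3 were called lower: Lrat, the enzyme that makes retinyl esters for the visual cycle, the retinol dehydrogenase gene Rdh10 and the integrin gene Itgb8. Lrat was at 132, 102.2, 199.2 and 129 CPM in controls and at 56.3, 59.9, 58.7 and 28.7 CPM at day 7, lowest in replicate 4 (-1.47 ± 0.33, adjusted p = 0.0209). Rdh10 fell by 0.87 (adjusted p = 0.0167) and Itgb8 by 0.94 (adjusted p = 0.0219). Itgb8, with a length of 11060 bases in the deposited table, did not pass with the gene length offset (adjusted p = 0.0668). Of 12 melanin genes Slc24a5, an ion exchanger of the melanosome, was called lower (-0.87 ± 0.21, adjusted p = 0.0224), and 7 of the 12 were with lens and cornea scores. The pigment epithelium list took 0.319%, 0.312%, 0.314% and 0.165% of counts at day 7, so replicate 4 alone lay below the control range.

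The glycolysis and hypoxia list gave 4 falls among 23, of which 2 are enzymes of glycolysis, and the list median was -0.25. Hk2, a hexokinase, was at 578.2, 581.2, 661.1 and 650.9 CPM in controls and at 198.2, 286, 332.1 and 288.2 CPM at day 7, a fall of 1.16 on the log2 scale (SE 0.25, adjusted p = 0.0183). The phosphofructokinase gene Pfkp (-0.71, adjusted p = 0.0482) and the hypoxia-responsive genes Kdm3a (-0.43, adjusted p = 0.024) and Ddit4 (-0.42, adjusted p = 0.0492) fell by less. Pfkp and Kdm3a lost their call with the gene length offset (adjusted p = 0.231 and 0.165). In the same list 2 of the 23 were called with lens and cornea scores, with a median of -0.06. Among 7 tested myelin genes Ermn, a cytoskeletal protein of myelin, was lower (-0.92 ± 0.27, adjusted p = 0.0459), while the list median was 0.19. Ermn lost its call in each of the 8 fits that left out 1 library.

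Genes called lower were longer than genes called higher. The former had a median length of 7208 bases in the deposited table, the latter 2051 and all tested genes 3762. Of the 861 tested genes over 12 kb, 29% were lower and 0.116% higher, and of 1608 genes up to 1 kb, 2.36% were lower and 8.33% higher. Genes over 8 kb took 23.6% to 24.6% of control counts and 17.4%, 16.7%, 20.1% and 21.5% in day 7 replicates 1 to 4, so every day 7 library was below every control. Spearman's rho between log2 fold change and length was -0.34 across 18657 genes, which share the same libraries and are not independent. It was -0.24 at day 3 and -0.28 at day 14 against the same controls. With a loess offset for gene length in the counts, 594 genes were called, 169 higher (0.906%) and 425 lower (2.28%), 549 of them among the 1962. RNA integrity is not given in the sources used here, and its part in these calls was not tested.

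**Figure D4:**
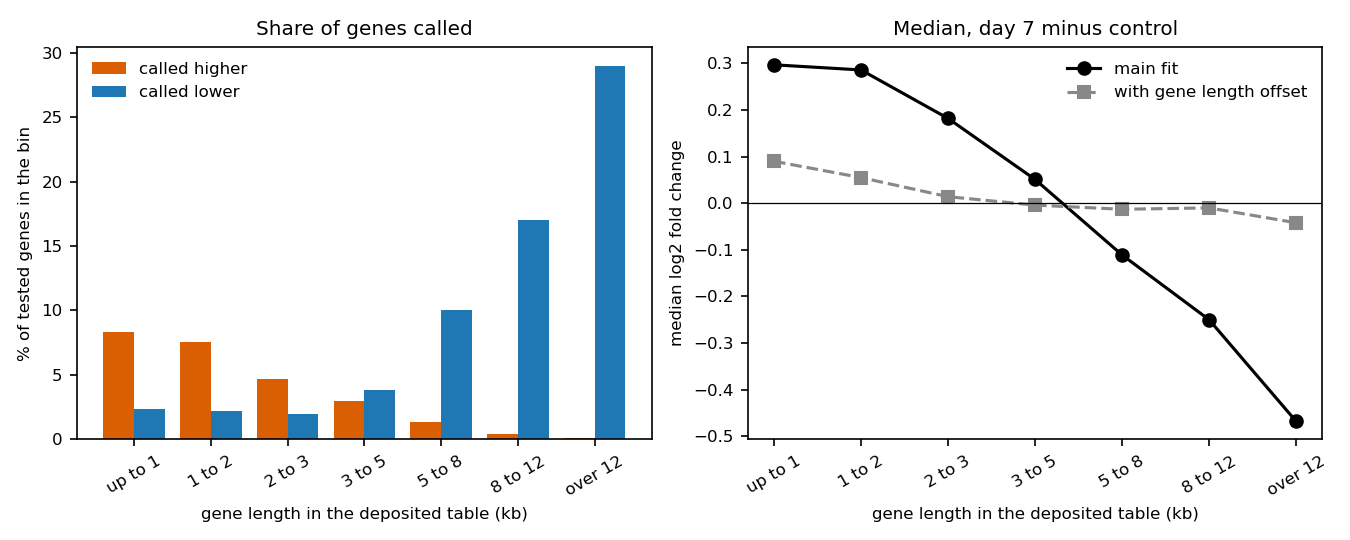
Left, percent of tested genes called higher or lower at day 7 in 7 bins of gene length. Right, median log2 fold change per bin in the main fit and with a gene length offset: the main median goes from 0.30 in genes up to 1 kb to -0.47 in genes over 12 kb, and with the offset from 0.09 to -0.04.

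Genes of the ribosome and of mitochondria, most of them short, were among the rises. Of 79 ribosomal protein genes 31 rose and none fell (39.2%, against 3.62% of all tested genes called higher), with a median of 0.78. Above the controls without overlap lay 65 of the 79, against 11.3% of all tested genes. Rpl26 was at 185.1, 178.7, 181.9 and 166.4 CPM in controls and at 378.7, 380.3, 329.2 and 256.2 CPM at day 7 (0.92 ± 0.18, adjusted p = 0.0118). Rps12 (1.17, adjusted p = 0.0368), Rpl37a (0.99, adjusted p = 0.0335) and Rps24 (0.88, adjusted p = 0.0214) rose with the same order of libraries, replicates 1 and 2 above 3 and 4. With the gene length offset 3 of the 79 were called and the median was 0.58, and with lens and cornea scores 4, with a median of 0.34. Without replicates 1 and 2 the median was 0.50. Many of these genes have processed pseudogenes, and reads that fit both could be split by the counting.

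Against 3.62% of all tested genes called higher, respiratory chain genes encoded in the nucleus rose in 13 of 75 (17.3%, median 0.34). Those of the mitochondrial genome rose in 5 of 13 (38.5%, median 0.48). Ndufa11 (0.74, adjusted p = 0.0234) and Ndufa7 (0.54, adjusted p = 0.0171), subunits of complex I, are examples of the first. Mitochondrial mt-Nd4 was at 2355, 2256, 2254 and 1969 CPM in controls and at 3235, 4401, 3176 and 3158 CPM at day 7 (0.66 ± 0.16, adjusted p = 0.0254), and mt-Co3 rose by 0.92 (adjusted p = 0.0207). In both lists no gene was called with the gene length offset.

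Transcripts of tissues outside retina and choroid also differed between libraries. The lens list had a median of 2.10 with 2 calls among 21, the near-identical gamma crystallin genes Crygf and Cryge. Crygf was at 13.5, 0, 5.57 and 142 CPM at day 7 and at most 0.318 CPM in controls (7.44 ± 1.93, adjusted p = 0.0302). Replicate 2 lay below the controls, and without replicate 4 the value was 4.78 (adjusted p = 0.059). Cryge followed it (5.92, adjusted p = 0.0352, and 4.12 without replicate 4), and reads that fit both copies could be split between them.

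No cornea and conjunctiva gene passed among 14 (median 1.68). The corneal keratin Krt12 was at 3935, 3681, 666.4 and 515.8 CPM at day 7 and at 154.9 to 1016 CPM in controls (2.09 ± 0.78, adjusted p = 0.0867), and Krt13 of the conjunctiva showed the same order (1.70, adjusted p = 0.0574). Cornified envelope genes outside the list were called, with Crct1 at 8.54, 5.09, 1.12 and 0.921 CPM (4.18 ± 1.10, adjusted p = 0.0319, and 3.46 without replicate 1) and S100a7a at 15.1, 20.4, 3.73 and 2.7 CPM (3.35 ± 0.68, adjusted p = 0.0145).

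Red cell and muscle genes were uneven as well. Haemoglobin alpha, Hba-a1, was at 437.3, 28.9, 16.6 and 43.8 CPM at day 7 and at 7.67 to 15.6 CPM in controls (3.49 ± 1.06, adjusted p = 0.0484). Without replicate 1 the value was 1.34 (adjusted p = 0.308), and its near-identical copy Hba-a2 went from 4.02 (adjusted p = 0.0409) to 1.58 (adjusted p = 0.253). The embryonic myosin gene Myh3 was at 7.79, 0.918, 0.762 and 0.845 CPM in controls and 48.1, 20, 11 and 12.1 CPM at day 7 (3.13 ± 0.73, adjusted p = 0.0215). It was 4.75 without control replicate 1 (adjusted p = 0.00901) and 2.46 without day 7 replicate 1 (adjusted p = 0.0771). Sln, a regulator of the calcium pump of muscle, had the same highest control and rose by 2.90 (adjusted p = 0.0214), or 3.86 without that control (adjusted p = 0.0206). In the muscle list none of 13 passed, with Myl1 nearest (1.43, adjusted p = 0.0573). The share of these tissues in the other results was not tested beyond the model with lens and cornea scores, in which 1871 genes were called, 1052 of them among the 1962.

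The day 7 values stood between those of day 3 and day 14 for several rises, and no difference between days passed the edgeR test. Edn2 had a mean of 127.6 CPM at day 3, 84.4 at day 7 and 45.4 at day 14 against 5.02 in controls. Ecel1 had 42.5, 33.1 and 5.19 CPM, Sprr1a 35.4, 28.9 and 7.26 CPM, Gfap 128.5, 63.8 and 52.9 CPM, and Aplnr 2.89, 1.1 and 0.433 CPM in the same order. Among the falls Glra1 had 0.781, 0.507 and 1.16 CPM against 5.08 in controls, Zbtb16 2.85, 1.71 and 8.08 CPM against 16.7, and Hk2 299.6, 276.1 and 360.7 CPM against 617.9.

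The difference from day 3 was -0.60 ± 0.31 for Edn2, -1.01 ± 0.35 for Gfap and -1.38 ± 0.48 for Aplnr on the log2 scale, and none of these passed (adjusted p = 0.843, 0.731 and 0.731). No gene was called by edgeR between day 7 and day 3, with 1144 genes at an unadjusted p under 0.05, and DESeq2 called 63. None was called between day 14 and day 7 either, with 621 genes at an unadjusted p under 0.05 and 0 called by DESeq2. From day 7 to day 14 Ecel1 differed by -2.67 ± 0.82, Sprr1a by -1.99 ± 0.78 and Zbtb16 by 2.23 ± 0.52 (each adjusted p = 1).

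Day 3 and day 14 were compared with the same 4 controls, so their calls are not independent of those at day 7. Against control 2749 genes (14.7%) were called at day 3 and 51 (0.273%) at day 14. Of the 675 genes higher at day 7, 374 were called higher at day 3 (against 6.97% of all tested genes) and 6 at day 14 (0.0322% of all), and their medians were 0.78 at day 7, 0.66 at day 3 and 0.63 at day 14. Of the 1287 lower, 879 and 44 were called lower (7.77% and 0.241% of all tested genes), with medians of -0.67, -0.60 and -0.49. Both sets were picked for passing the test at day 7, which favours larger values on that day. Their medians therefore cannot rank the days. The day 14 libraries held 0.0899% to 14.7% of their counts in lens genes, a wider range than at day 7.

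**Figure D5:**
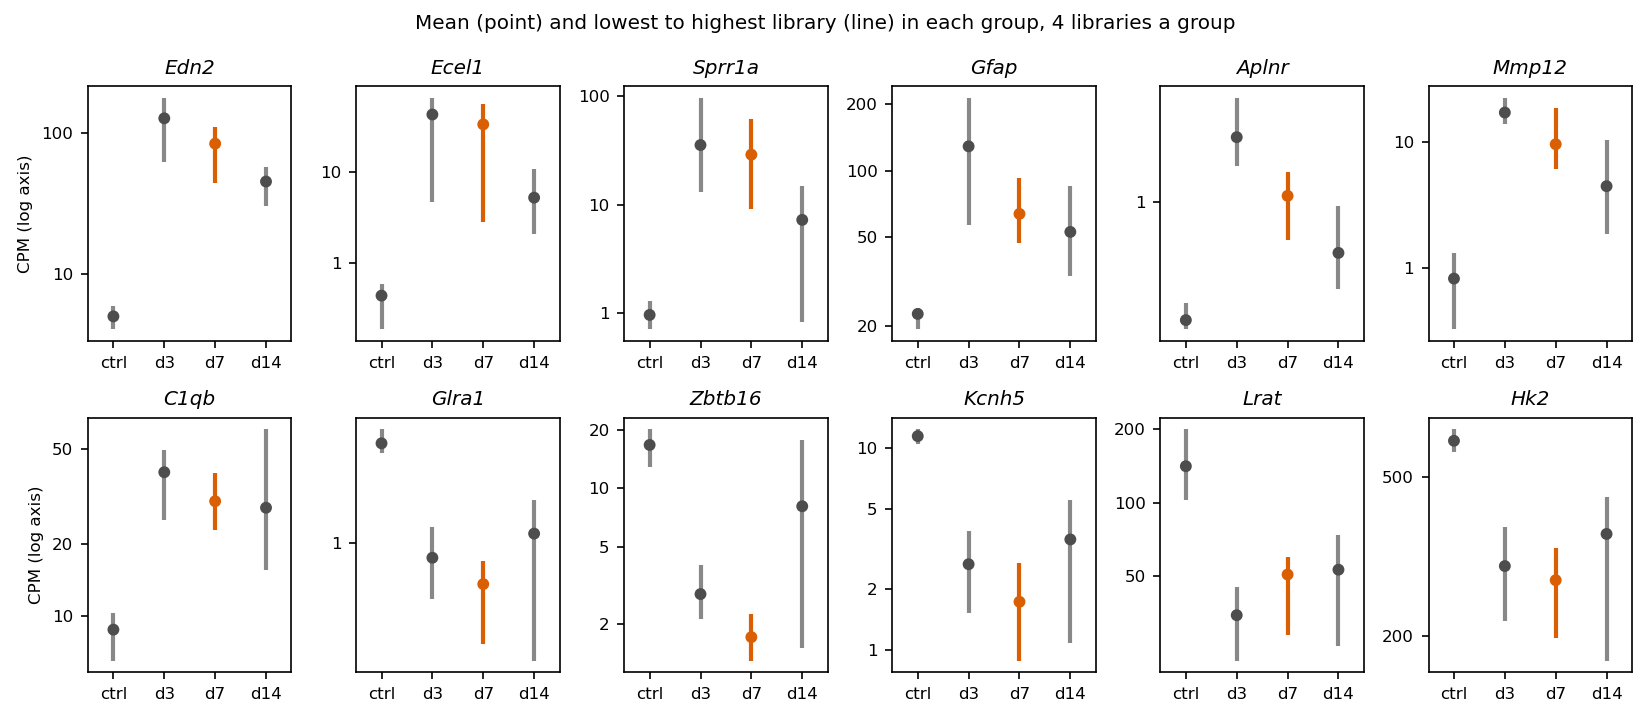
CPM on a log axis in control, day 3, day 7 and day 14 for 7 genes that rose and 5 that fell at day 7; points are means of 4 libraries and lines run from the lowest to the highest library. Day 7 means lie between those of day 3 and day 14 for the 7 rises, and the ranges of day 7 overlap those of day 3 and day 14 in every panel except Aplnr, where all day 3 libraries lie above day 7.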

How the data were processed

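RNA from retina and choroid was extracted with TRIzol and sequenced as bulk libraries, per the labels' protocols. The authors deposited raw counts per gene and FPKM for each library in 1 table, per the file headers. The FPKM values equal the counts divided by gene length and a constant per library, and only the counts were tested. The submitters' processing notes name featureCounts 1.5.0-p3 and build mm10. No source used here names the aligner, the annotation release or the strand setting.

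Libraries were grouped by their titles. Genes passing filterByExpr (minimum count 10) in the 16 wild-type libraries were scaled by TMM and tested with edgeR 4.0.16 (robust quasi-likelihood, 12 residual degrees of freedom, R 4.3.3), with Benjamini-Hochberg adjustment over 18657 of 54532 genes. CPM values are counts scaled to the library total times its TMM factor, not to the total alone. These factors were 0.9988 to 1.025 in controls and 0.9715 to 1.07 at day 7. The steps were tested on simulated data. Alternatives used DESeq2 1.42.0, limma 3.58.1 voom, other scalings, filters and groups, a replicate block, lens and cornea scores as covariates, and left-out libraries. A loess offset for gene length (span 0.5) and the leaving out of library pairs were chosen after seeing the data.

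The comparison and the 44 gene lists were chosen with earlier results of these data known. Named genes come from 3 sources: called genes reaching a mean of 1 CPM whose groups did not overlap (the 20 that rose most and the 20 that fell most), the 4 lowest p-values per list, and all called list members. Some genes under this rule are not reported here. With 4 against 4 libraries an exact permutation test of a single gene cannot go below p = 0.0286, and none is reported. The untested genes Ncr1, Gzma, Gzmb, Prf1, Elane, Ly6g and Mpo were chosen as defining markers.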

Additional observations from a re-analysis of the deposited data

Results flagged for a closer look

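Within the groups of 4 libraries, a single library stood far from the other three for 23 of 242 sets of gene values and for 3 shares of counts. Chance gives about 1 in 20 such sets for values with a normal spread, which counts of a few reads do not have. Day 7 replicate 4 was highest for Mmp12 at 18.66 CPM, C1qc at 37.08 CPM, Clec7a at 6.508 CPM, Ctss at 68.94 CPM, Cx3cr1 at 8.595 CPM and Crygf at 142 CPM. It was lowest for Lrat at 28.73 CPM and for the pigment epithelium share at 0.165% of counts.

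Day 7 replicate 1 stood apart for Hba-a1 at 437.3 CPM, Hba-a2 at 140 CPM, the red cell share at 0.0701% and Col8a1 at 46.04 CPM, all high. Day 7 replicate 2 was high for mt-Nd4 at 4401 CPM and mt-Co3 at 96 CPM.

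Among controls, replicate 1 was high for the muscle genes Myh3 at 7.794 CPM, Myl1 at 71.94 CPM and Sln at 1.856 CPM and for the muscle share at 0.0782%. Replicate 2 was high for Cd180 at 0.4592 CPM and Glycam1 at 0.2624 CPM and low for Gfap at 19.28 CPM. Replicate 3 was high for Fosb at 4.956 CPM and Aplnr at 0.1906 CPM and low for Clec7a at 0.6989 CPM. Replicate 4 was high for Ccl12 at 0.195 CPM and Gnb3 at 408.6 CPM. The control values of Aplnr and Ccl12 rest on a few reads, where a single read can make such a gap.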

How the results depend on the processing

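The 1962 called genes kept their sign in every alternative that tested them except the gene length offset, where 1932 did, and the causes of the changes in number were not tested. Called, higher and lower genes, and those at least 2-fold higher and lower, numbered 4485, 2017, 2468, 569 and 461 when the model held just control and day 7, and 3768, 1690, 2078, 686 and 478 with DESeq2. They numbered 751, 256, 495, 119 and 151 with no filter on low counts (more genes tested), 594, 169, 425, 72 and 183 with the gene length offset, and 5638, 2668, 2970, 876 and 515 without day 3 replicate 3 and day 14 replicate 1. Without day 7 replicates 1 and 2 they numbered 6, 4, 2, 4 and 0. Scaling by totals gave 631 lower genes, and 171 genes rose at least 2-fold with limma voom and 151 with lens and cornea scores. Leaving out 1 library gave 128 to 2923 called, 34 to 1200 higher, 94 to 1723 lower, and 22 to 473 and 26 to 513 at least 2-fold higher and lower. Between day 7 and day 3, DESeq2 called 63 genes, the lens and cornea scores 3, the fit without day 3 replicate 3 and day 14 replicate 1 called 15, and leaving out 1 library 0 to 2. Among named genes, signs turned for S100a8 (-1.48) and Eomes (0.13) with lens and cornea scores and for Il2rb (-0.86 to 0.34 when 1 library was left out, highest without control replicate 1), none of them called. Some named genes without a call in the main model were called with DESeq2 and in the model of just control and day 7. They were Stat3, Hes1, Birc5, Gnb3 and Krt13 (higher) and Vegfa, Glul, Slc24a1, Grk1, Nefh, Nefm and Pou4f3 (lower). With the replicate block 1691 genes were called, 1496 of them shared. Samples with the same number did not deviate together (correlations 0.33, -0.27, 0.18 and 0.05, and number 1 alone correlated best with its own number), so the numbers were not taken as pairs. Counts of a few reads per library limit what can be said of NK cell and neutrophil genes.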
